A study of Cavia porcellus with 12 samples.

Results

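Red blood cell genes were followed in the liver of 12 female Hartley guinea pigs, 6 with nonalcoholic steatohepatitis (NASH) and 6 controls. The erythroid genes described here are GATA1, KLF1, HBA1, ALAS2, CA1, SLC4A1, SPTB, KEL and RHAG, which are 9 of the 11896 human gene symbols in the deposited expression table. They were picked by name, knowing from these data that they were higher in NASH than in controls, that they spread widely among the NASH animals, and that they put these animals in a like order. The contrast between the groups, the spread within NASH and the order of animals by each erythroid gene are therefore given as a description, with no test.

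Red blood cells arise from nucleated precursors that fill with hemoglobin, build a spectrin-based membrane skeleton and then lose the nucleus. The youngest circulating red cells, the reticulocytes, still hold RNA for globin, heme and membrane proteins, while the transcription factors that start the program act in the nucleated precursors. In adult mammals red cells are made mainly in the bone marrow, whereas the liver makes them before birth.

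The animals, of the strain labelled Dunkin Hartley, arrived at 10 weeks of age, had 1 week of acclimatisation, and were then on their diets for 25 weeks. The NASH group ate a high-fat diet (fat 20%, cholesterol 0.35%, sucrose 15%), and its 6 animals were chosen from a larger diet group because they had bridging fibrosis. The Control group ate chow (fat 4%, no cholesterol, no sucrose) and was free of NASH and fibrosis. Diet and disease therefore cannot be told apart. The livers were not perfused, so the blood inside the vessels was part of each sample, taken from the left lateral lobe. In such bulk tissue a change in the number of red cells or precursors and a change in the RNA per cell cannot be told apart.

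Poly(A) RNA was counted in 39061 gene rows, with 16980274 to 28636467 counts in a control and 23704607 to 33091460 in a NASH animal. Values are CPM, counts relative to a common library size after scaling by TMM factors, which were 0.804 to 0.875 in controls and 1.12 to 1.24 in NASH. NASH animals 41 and 65, which stood apart in the erythroid genes, had 33091460 and 25596476 counts. Over all 11896 symbols, 6411 or 53.9% differed, 3318 higher and 3093 lower in NASH (edgeR, adjusted p under 0.05). Scaling by library size alone moved the median log2 fold change of all symbols from 0.00 to 0.48, with 7603 higher and 911 lower. The hepatocyte list fixed as a check of the tissue held the most abundant transcripts, such as ALB at 74880 CPM ± 7812 (SD, n = 6) in controls and 30530 CPM ± 5726 in NASH.

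All 9 erythroid genes were measured, and each passed the minimum of 200 counts summed over the 12 animals. Of these, 2 (HBA1 and SPTB) had 200 counts in the controls alone, and 7 were in the table only through their NASH counts. In 7 of the 9 genes every NASH animal lay above every control, and the exceptions were SPTB and KLF1. This order was found in 18.4% of all symbols, and nothing is read from the comparison because the contrast chose the genes. NASH 41 was the highest and NASH 65 the next highest NASH animal in all 9 genes, an order held by 3.94% of all symbols.

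**Figure D1:**
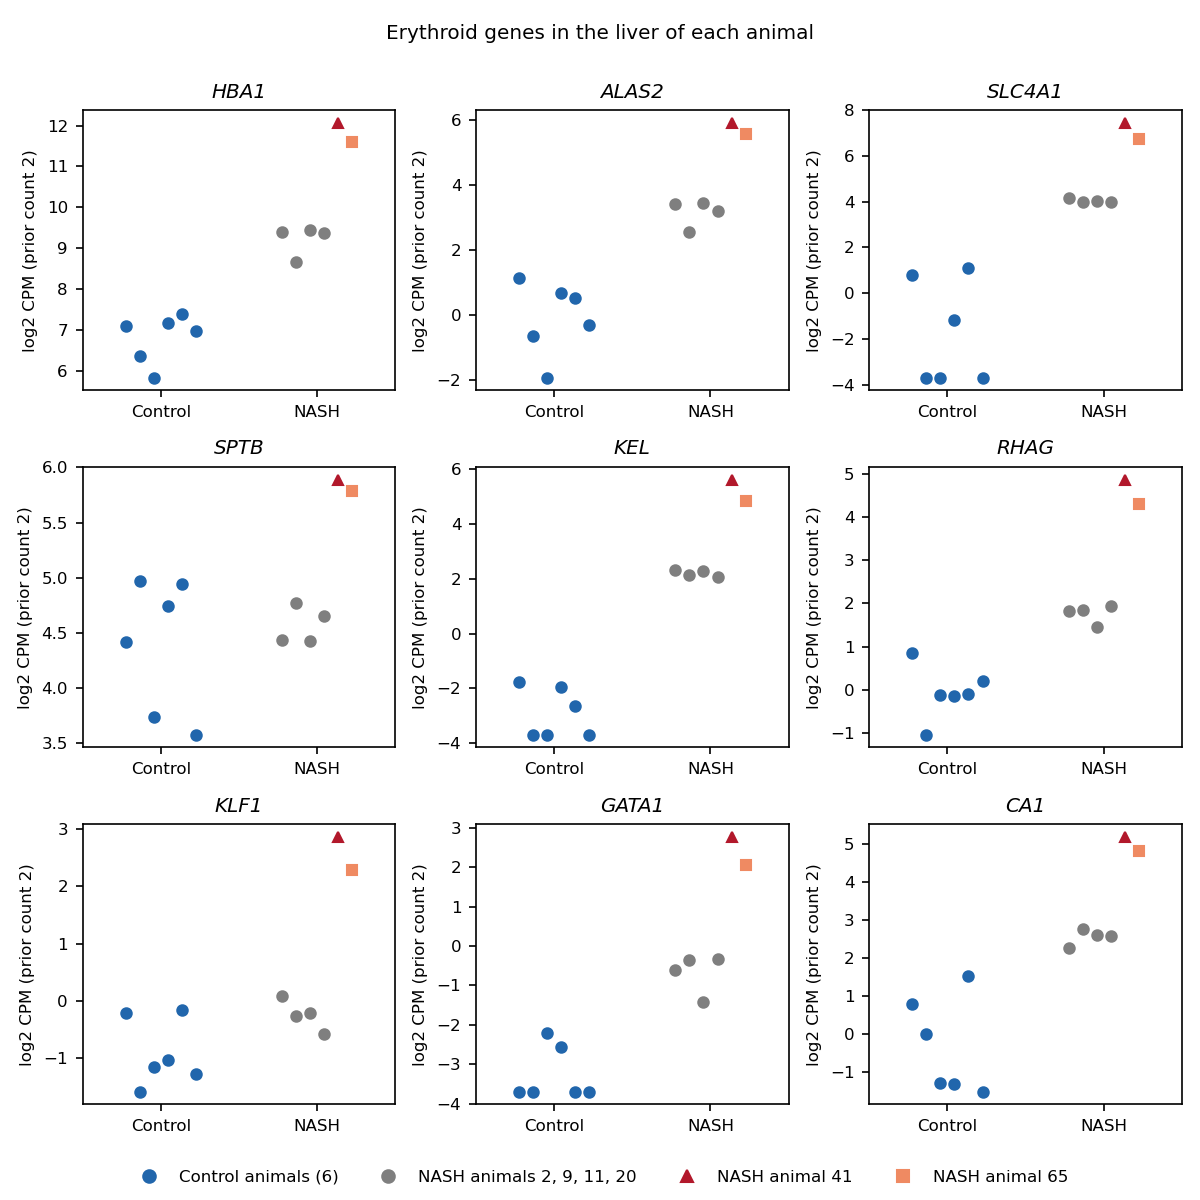
Each panel plots 1 erythroid gene, with the log2 CPM of each animal (prior count of 2) on the vertical axis and the 6 Control and 6 NASH animals side by side. NASH 41 and NASH 65 are the top pair of points in every panel. The other 4 NASH animals lie within the range of the controls in SPTB, as do all of them but NASH 2 in KLF1.

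GATA1 encodes the zinc finger transcription factor that directs red cell, platelet and mast cell development. The controls held 0 to 3 GATA1 counts each, with a lowest, median and highest level of 0, 0 and 0.14 CPM. The NASH animals had 0.295 CPM at the lowest, 0.709 at the median and 6.73 at the highest. NASH 41 had 6.73 CPM and NASH 65 had 4.10 CPM, and NASH 2, 9, 11 and 20 had 0.578, 0.701, 0.295 and 0.717 CPM. The groups did not overlap, but the lowest NASH animal rested on 9 counts. Since no control exceeded 3 counts, the NASH mean of 2.19 CPM ± 2.64 (SD, n = 6) is read as at least 10.2-fold higher, taken against the level of 3 counts in the smallest control library.

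KLF1 encodes the erythroid Krüppel-like factor, which switches on adult globin and red cell membrane genes. It ranged from 0.256 CPM through a median of 0.393 to 0.823 in controls, and from 0.592 through 0.886 to 7.19 in NASH. NASH 2, 9, 11 and 20 lay at 0.986, 0.759, 0.786 and 0.592 CPM, NASH 65 at 4.76 and NASH 41 at 7.19. Only NASH 2, 41 and 65 were above the highest control, and the rest of the NASH group overlapped it. The mean was 5.05-fold higher in NASH, at 2.51 CPM ± 2.79 against 0.498 ± 0.243 (SD, n = 6 each). Without NASH 41 and NASH 65 the fitted log2 difference was 0.64, against 2.33 (SE 0.71) over all 12 animals.

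HBA1 encodes alpha-globin, a subunit of hemoglobin, and its count row is shared with its near-identical copy HBA2, so the copies cannot be told apart. The controls ranged from 56.9 CPM through a median of 130.3 to 167.9. The NASH animals had 678.8 (NASH 2), 404.7 (NASH 9), 698.3 (NASH 11), 659.8 (NASH 20), 4289 (NASH 41) and 3120 CPM (NASH 65). The lowest NASH animal was 2.41-fold above the highest control. As a share of all counts of the library, with no scaling, HBA1 took 0.00498% to 0.0142% in controls, 0.0469% to 0.0842% in NASH 2, 9, 11 and 20, 0.348% in NASH 65 and 0.508% in NASH 41. The groups were therefore apart with or without TMM scaling. Their means, 1642 CPM ± 1643 in NASH and 118.4 ± 41.3 in controls (SD, n = 6 each), differed 13.9-fold, with an SD in NASH as large as its mean.

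ALAS2 encodes the erythroid form of 5-aminolevulinate synthase, which starts heme synthesis in red cell precursors. It ranged from 0.186 CPM through 1.05 to 2.14 in controls. In NASH 2, 9, 11 and 20 it was 10.5, 5.81, 10.8 and 9.07 CPM, and in NASH 41 and 65 it was 60.2 and 47.3 CPM. Every NASH animal lay above the controls, the lowest by 2.71-fold over the highest control. The fold between the means was 22.1.

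CA1 encodes carbonic anhydrase 1, an abundant enzyme of mature red cells that hydrates carbon dioxide. Controls had 0.269 CPM at the lowest, 0.625 at the median and 2.80 at the highest. NASH 2, 9, 11 and 20 had 4.76, 6.74, 6.03 and 5.89 CPM, NASH 41 had 36.8 and NASH 65 had 28.1 CPM. The lowest NASH animal was 1.70-fold above the highest control, and the means differed 14.0-fold. CA1 was the only one of the 9 genes in which NASH 2 was the lowest NASH animal.

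SLC4A1 encodes band 3, the chloride and bicarbonate exchanger that anchors the membrane skeleton. It was at 0 counts in controls 10, 31 and 56, and the highest control, animal 45, had 2.1 CPM. NASH 2, 9, 11 and 20 fell in a narrow range of 15.9 to 17.8 CPM, the highest of them 1.12-fold above the lowest, while NASH 65 had 108.2 CPM and NASH 41 had 175.2 CPM. The groups were apart by 7.56-fold between their nearest animals. The means were 0.685 CPM ± 0.941 in controls and 58.2 ± 68.1 in NASH (SD, n = 6 each), a fold of 85.0 that rests on 0 to 51 counts per control.

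KEL encodes the Kell blood group glycoprotein, a membrane peptidase. Controls held 0 to 4 counts each, at most 0.214 CPM. NASH 2, 9, 11 and 20 had 4.93, 4.35, 4.75 and 4.15 CPM, NASH 65 had 28.6 CPM and NASH 41 had 48.9 CPM. The nearest animals of the groups were 19.3-fold apart, the widest gap among the erythroid genes. The fold between the means, 199.2, depends on the few control counts.

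RHAG encodes the Rh-associated glycoprotein, which carries the Rh antigens to the cell surface. It ranged from 0.41 CPM through 0.851 to 1.72 in controls. NASH 2, 9, 11 and 20 had 3.47, 3.50, 2.65 and 3.74 CPM, and NASH 65 and NASH 41 had 19.5 and 28.97 CPM. The groups did not overlap, with 1.55-fold between their nearest animals and 10.8-fold between their means.

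SPTB encodes beta-spectrin of the red cell membrane skeleton and stood apart from the other 8 genes. It was at 11.9 CPM at the lowest, 23.9 at the median and 31.3 at the highest in controls, so it was well expressed without NASH. NASH 2, 9, 11 and 20 lay inside that range, at 21.5, 27.2, 21.4 and 25.1 CPM. Only NASH 65 at 55.1 CPM and NASH 41 at 59.1 CPM exceeded the controls. The means differed 1.55-fold, and the fitted log2 difference fell from 0.63 (SE 0.33) to 0.07 when both animals were left out.

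NASH 41 exceeded NASH 65 in all 9 genes, by between 1.07-fold in SPTB and 1.71-fold in KEL. NASH 65 in turn exceeded the next NASH animal by 2.03-fold in SPTB and by 4.16-fold (CA1) to 6.09-fold (SLC4A1) in the other 8. Among NASH 2, 9, 11 and 20 the highest animal was 1.12-fold (SLC4A1) to 2.43-fold (GATA1) above the lowest. The spread within these 4 animals was thus narrower in each of the 9 genes than the step up to NASH 65. On the deposited rlog scale, a log2 scale that shrinks low counts, SLC4A1 had the second largest SD over the NASH animals of all 11896 symbols, at 1.17. HBA1 ranked 7 with an SD of 1.02, KEL 17, ALAS2 20, RHAG 38, CA1 45, GATA1 178, KLF1 219 and SPTB 356, the last with an SD of 0.42. An SD at least that of SPTB was found in 2.99% of all symbols. The SD over the controls was 0.38 for SLC4A1 and 0.30 for HBA1, and lower than in NASH for each of the 9 genes.

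The order of animals came from NASH 41 and NASH 65. Kendall's W, which is 1 when all genes rank the animals alike and averages 0.111 for 9 genes with unrelated ranks, was 0.722 over the 6 NASH animals on the rlog scale and 0.514 without NASH 41. The 9 genes were picked knowing that order, so nothing is read from setting these values against 0.111. Over NASH 2, 9, 11 and 20 W was 0.0272, so the 9 genes gave these 4 animals nearly equal rank sums. NASH 9, for example, was the lowest of the 6 in HBA1 and ALAS2 and ranked 3 in SPTB and CA1. Over the 6 controls W was 0.354, with controls 5 and 45 at a median rank of 2 and controls 10 and 31 at a median rank of 5. These ranks rest on few counts or none in GATA1, KEL and SLC4A1, and the rlog gives controls at 0 counts values that differ between libraries. In KEL, control 56 at 0 counts thus ranked above control 45 at 2 counts. Part of the order among controls is therefore not one of erythroid RNA. On log2 CPM, where controls at 0 counts tie, W over the 6 controls was 0.403.

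**Figure D2:**
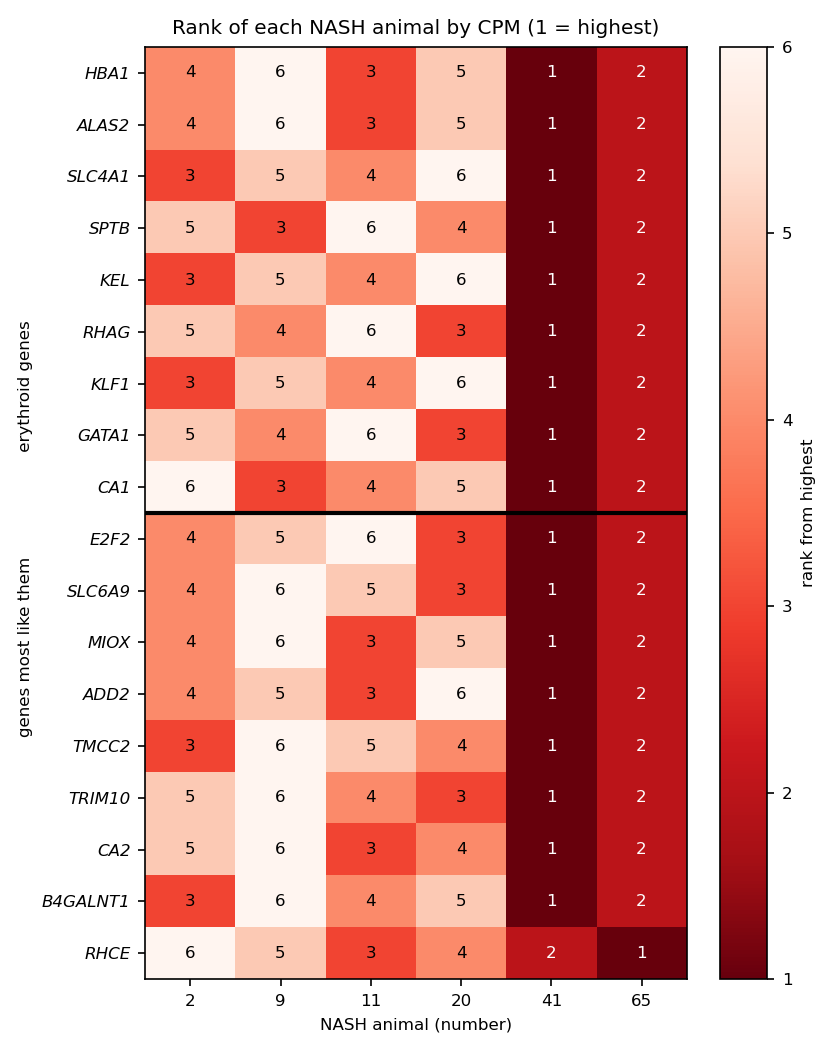
The heat map gives the rank by CPM of the 6 NASH animals (columns) in the 9 erythroid genes above the black line and in 9 of the most similar genes below it, where 1 and dark red mark the highest animal. NASH 41 and NASH 65 take ranks 1 and 2 in every row, in reverse order in RHCE, while the ranks of the other 4 animals change from gene to gene.

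Set against HBA1 in the same animal, the erythroid genes split into those that kept pace with globin and those that did not. ALAS2 had 13.8 to 15.5 counts per 1000 HBA1 counts in all 6 NASH animals, a narrow band although HBA1 itself spread 10.6-fold. Controls had 3.28 to 15.8, at a median of 7.49 against 14.8 in NASH, and only control 5 reached the NASH range. CA1, at a median of 8.78 in NASH and 8.5 in controls, and RHAG, at 5.95 and 7.21, overlapped between the groups. SLC4A1 had 23.4 to 40.9 in NASH against 0 to 12.5 in controls, and KEL 6.28 to 11.4 against 0 to 1.58, with no overlap in either gene.

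KLF1 and SPTB ran the other way. Per 1000 HBA1 counts KLF1 had 2.70 to 6.55 in controls and 0.898 to 1.88 in NASH, and SPTB 95.0 to 382 in controls and 13.8 to 67.2 in NASH, again with no overlap. GATA1 had 0.422 to 1.73 in NASH and 0 to 2.46 in controls, where it rested on at most 3 counts an animal. In NASH 41 and NASH 65, the animals with the most globin RNA, these ratios lay inside the range of the other 4 NASH animals for RHAG, KLF1, GATA1, CA1 and ALAS2. SPTB was lower there, and SLC4A1 and KEL were highest in NASH 41. The ratios carry the same contrast that chose the genes and were not tested.

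**Figure D3:**
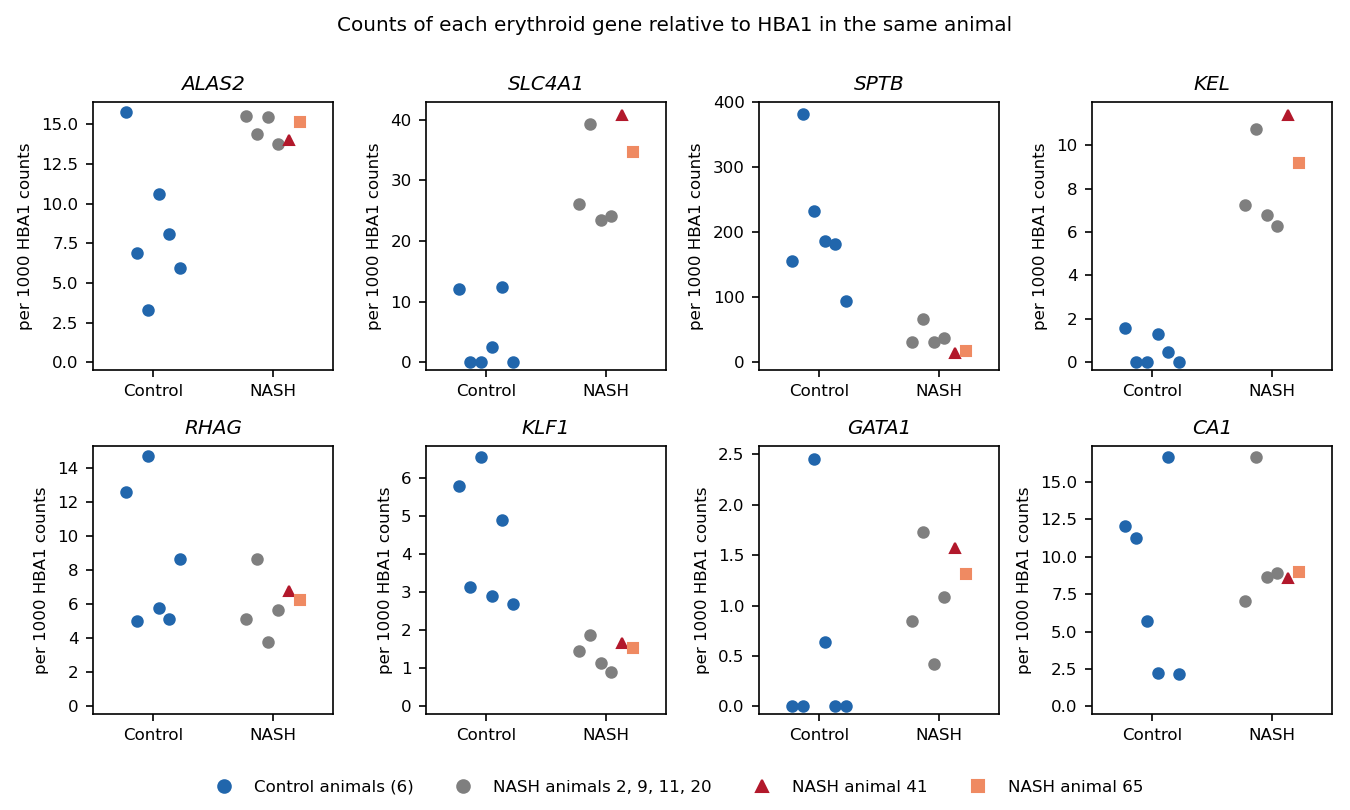
Each panel plots the counts of 1 erythroid gene per 1000 HBA1 counts of the same animal, with every Control and NASH animal as a point. ALAS2 stays between 13.8 and 15.5 in all NASH animals, SLC4A1 and KEL lie above the controls, and SPTB and KLF1 lie below them.

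The other genes of the red cell program were taken from 5 lists and tested with edgeR, with p-values adjusted over all 11896 symbols. Among all symbols 27.9% were higher and 26.0% lower in NASH. The lists were chosen with earlier results of these data known and are described by counts and medians only. A listed gene with under 200 counts in the controls together was in the table only through its NASH counts, which held for 3 of 11 rows of membrane and surface genes, 3 of 9 of late red cell genes and 2 of 12 of transcription factors and signalling, and for none of the heme lists. ADD2, XK, HBQ1, TRIM10, TRIM58 and NFE2 were such genes, and each also passed as higher in an edgeR fit of every row with at least 1 count (adjusted p = 8.00e-04 to 0.0116). Leaving out NASH 41 and NASH 65, an alternative chosen after seeing the data, left 25.3% higher and 24.1% lower.

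Of 19 listed membrane and surface genes, 12 were in the table on 11 count rows, and ANK1 and EPB42 were not analysed here. In all 4 rows rose, 2 fell and 5 did not pass. Among those that rose were ADD2 (beta-adducin, which joins spectrin to actin), XK (the partner of the Kell protein) and KCNN4 (a potassium channel of red cells and other cells), and those that fell were TSPO2 and TSPAN33. ADD2 had 0.147 CPM ± 0.145 in controls and 4.78 ± 5.32 in NASH (SD, n = 6 each), and every NASH animal lay above every control. ADD2 rose by 5.12 on the log2 scale (SE 0.96, edgeR adjusted p = 6.69e-04), and by 3.36 without NASH 41 and 65, and limma-voom gave an adjusted p of 0.0491. XK, with at most 3 counts in a control, was at least 5.92-fold higher. The list's median log2 fold change was 0.64, against 0.00 for all symbols, and 0.51 without NASH 41 and 65, when 4 rows were higher and 4 lower.

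The remaining changes of this list were smaller. TSPO2 fell by 0.86 (SE 0.30, edgeR adjusted p = 0.0265) and TSPAN33 by 0.62 (SE 0.12, edgeR adjusted p = 8.49e-04) on the log2 scale, and with library size alone neither passed. TSPO2 also missed the threshold without any 1 of controls 5 and 56 or NASH 2, 9, 11 and 20, at edgeR adjusted p = 0.0501 to 0.0663. KCNN4 rose by 0.69 (SE 0.20, edgeR adjusted p = 0.0111). RHCE, which shares its row with RHD and encodes the Rh antigens, had a log2 fold change of 0.26 (edgeR adjusted p = 0.807). It lay at 14.9 CPM in NASH 41 and 18.3 in NASH 65, at 0.986 to 1.97 in the other NASH animals and at 5.19 to 7.74 in the controls, apart from 0.143 in control 5. Without NASH 41 and 65, its highest NASH animals, it was among the lower genes at -1.93 (edgeR adjusted p = 0.0248), a direction that leaving out these 2 favours. In 8 of the 11 rows NASH 41 and 65 were the top pair of the NASH animals, or 72.7%, against 8.01% of all symbols.

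Of 18 globin and late red cell genes, 10 were measured, on 9 rows once HBA2, which is the HBA1 row, was set aside. The beta-globin gene HBB and the alpha-globin chaperone AHSP were not analysed here. HBQ1 (theta-globin), TMCC2, TRIM10, TRIM58 and BPGM rose, none fell, and 4 did not pass. TRIM58, which takes part in the loss of the nucleus, rose by 4.81 on the log2 scale (SE 1.12, edgeR adjusted p = 0.00283) from 0 to 4 counts per control, and by 2.77 without NASH 41 and 65. BPGM, the enzyme that makes 2,3-bisphosphoglycerate and so sets the oxygen affinity of hemoglobin, had 5.64 to 7.89 CPM in controls and 11.8, 9.17, 13.6, 12.9, 29.4 and 20.9 CPM in NASH 2, 9, 11, 20, 41 and 65. It rose by 1.29 (SE 0.25, edgeR adjusted p = 9.27e-04), with no overlap.

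TMCC2, a membrane protein abundant in erythroid cells, had 2.05 to 3.83 CPM in controls and 6.66 to 8.13 in NASH 2, 9, 11 and 20, then 57.2 in NASH 41 and 29.8 in NASH 65. Its log2 fold change was 2.87 (SE 0.58, edgeR adjusted p = 0.00116). TRIM10, named for its part in terminal red cell differentiation, rose by 2.94 (SE 0.77, edgeR adjusted p = 0.00591) and HBQ1 by 3.02 (SE 0.86, edgeR adjusted p = 0.00986). Without NASH 41 and 65 TRIM10 rose by 1.25 and HBQ1 missed the threshold (edgeR adjusted p = 0.0782). With limma-voom both genes missed it, at an adjusted p of 0.0942 for TRIM10 and 0.0983 for HBQ1. FAM210B, a mitochondrial protein of erythroid heme synthesis, had a log2 fold change of -0.53 (edgeR adjusted p = 0.0599), and passed as lower with DESeq2 (adjusted p = 0.0379) and limma-voom (0.0401). The median of the list was 1.29, and 0.83 without NASH 41 and 65, which were the top pair in 8 of its 9 rows.

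Erythroid transcription factors and erythropoietin signalling, with 13 of 17 listed genes on 12 rows, were mixed. NFE2, KIT, CISH and JAK2 rose, ZFPM1 fell, and 7 rows did not pass. NFE2, a factor that drives globin and platelet genes, was at 0.885 to 2.31 CPM in controls, at 2.25 to 3.08 in NASH 2, 9, 11 and 20, and at 13.2 in NASH 41 and 9.14 in NASH 65. It rose by 1.90 (SE 0.49, edgeR adjusted p = 0.00564), and by 0.85 without those animals, although limma-voom gave an adjusted p of 0.0578. KIT, the stem cell factor receptor of progenitors and mast cells, rose by 1.33 (SE 0.29, edgeR adjusted p = 0.00163), and its highest animal was NASH 9, not NASH 41 or 65.

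CISH, a feedback inhibitor that STAT5 switches on, rose by 1.27 (SE 0.39, edgeR adjusted p = 0.0142), and JAK2, the kinase of the erythropoietin receptor and of many cytokine receptors, by 0.33 (SE 0.08, edgeR adjusted p = 0.00321). ZFPM1 (FOG1), the partner of GATA1, fell by 0.42 (SE 0.13, edgeR adjusted p = 0.0167), but its log2 fold change was 0.05 with library size alone. NASH 41 and 65 were the top pair in 2 of the 12 rows, or 16.7%, against 8.01% of all symbols. The median of the list was 0.11. EPO, its receptor EPOR, MYB and GFI1B were not analysed here.

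Of 14 heme synthesis and iron uptake genes measured outside the 9, 8 fell, none rose and 6 did not pass, with a median of -0.33, and the counts were the same without NASH 41 and 65. Scaling by library size alone gave 5 higher and 3 lower instead. ALAS1, the housekeeping counterpart of ALAS2 and the liver's main 5-aminolevulinate synthase, fell by 1.14 on the log2 scale (SE 0.20, edgeR adjusted p = 3.53e-04), with every NASH animal below every control. CPOX fell by 1.84 (SE 0.30, edgeR adjusted p = 2.33e-04) and CLPX, a mitochondrial protease component that acts on 5-aminolevulinate synthase, by 1.04 (SE 0.12, edgeR adjusted p = 1.02e-05). ALAD, TMEM14C and ABCB6 fell by 0.61, 0.59 and 0.53, and these smaller changes did not pass with library size alone. TFRC, the transferrin receptor, had a log2 fold change of 0.77 (edgeR adjusted p = 0.0648). It passed as higher with DESeq2 (adjusted p = 0.0334), limma-voom (0.0472), upper-quartile factors (0.043) and library size alone (0.00446).

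PPOX, an enzyme of heme synthesis that liver and red cell precursors share, also set NASH 41 and NASH 65 apart. It had 2.49 to 5.18 CPM in controls, 3.30 to 4.40 in NASH 2, 9, 11 and 20, 10.4 in NASH 41 and 8.51 in NASH 65, and did not pass (edgeR adjusted p = 0.179). With library size alone it passed as higher, at 0.96. PPOX was singled out after its values were seen.

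Among genes of heme breakdown and hemoglobin clearance, 11 of 12 were in the table, of which 5 rose, 2 fell and 4 did not pass, with a median of 0.08. With library size alone 8 were higher and 1 lower. HMOX1, the inducible heme oxygenase, rose by 0.83 (SE 0.17, edgeR adjusted p = 0.00107), with every NASH animal above every control, and HMOX2 by 0.58 (SE 0.11, edgeR adjusted p = 7.91e-04). FLVCR2, of a family of heme and choline transporters, rose by 1.47 (SE 0.20, edgeR adjusted p = 5.73e-05). SLC40A1, the iron exporter ferroportin, rose by 0.40 (SE 0.13, edgeR adjusted p = 0.0188), and missed the threshold without NASH 41 and 65 (edgeR adjusted p = 0.0566). The biliverdin reductases BLVRA and BLVRB fell by 0.82 and 0.74 (edgeR adjusted p = 4.28e-06 and 1.19e-04), BLVRB not passing with library size alone. The hemoglobin scavenger receptor gene CD163 was not analysed here.

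**Figure D4:**
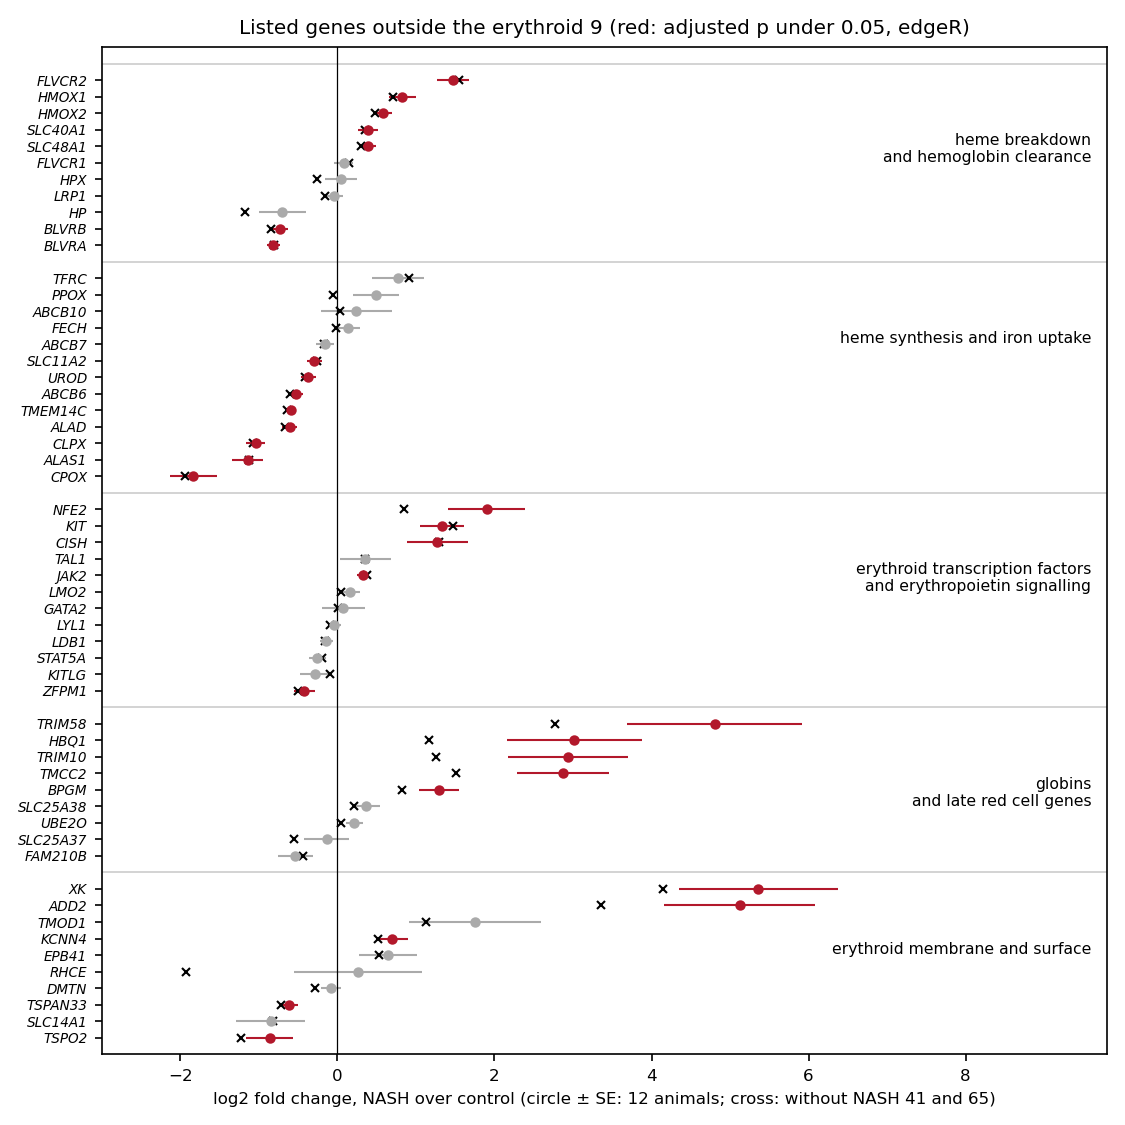
Log2 fold changes, NASH over control, are on the horizontal axis for listed genes of 5 groups. Circles with bars give the edgeR value ± SE over 12 animals (red where the adjusted p was under 0.05), and crosses the value without NASH 41 and NASH 65. XK, ADD2 and TRIM58 lie farthest to the right, the heme synthesis genes that passed lie left of 0, and RHCE moves from 0.26 to -1.93 when its highest 2 NASH animals are left out.

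Genes outside the 9 that followed them most closely among the NASH animals were found by the Pearson r of their rlog values with the mean of the 9 genes, each scaled, over 6 animals. Of the 207 symbols (1.74% of all) with an rlog SD of at least 0.5 over these animals, 24 had an r of at least 0.9, which is 0.202% of all symbols, and 7 of the 24 were erythroid genes of the 9 themselves. The 12 with the highest r, from 0.974 to 0.999, included E2F2, SLC6A9, MIOX, ADD2, TMCC2, TRIM10, HBA2 (the HBA1 row), CA2, B4GALNT1 and RHCE. In 11 of them, HBA2 included, NASH 41 was the highest and NASH 65 the next, and RHCE had the reverse order. As with the 9 genes, these r rest on NASH 41 and 65, and over the other 4 NASH animals they ran from -0.78 (RHCE) to 0.89 (B4GALNT1).

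E2F2, a cell cycle factor active in red cell precursors, had the highest r, 0.9993. It was at 0.459 to 0.686 CPM in NASH 2, 9, 11 and 20, at 8.06 in NASH 41 and 6.09 in NASH 65, and at 0.247 to 1.88 in controls. Its log2 difference was 1.72 (SE 0.87), with overlap. Without NASH 41 and 65, its highest NASH animals, it was -0.60 (SE 0.55), a direction that leaving them out favours. SLC6A9, a glycine transporter that feeds heme synthesis, had 0.186 to 0.597 CPM in controls and 1.11 to 1.496 in NASH 2, 9, 11 and 20, then 9.36 in NASH 41 and 6.06 in NASH 65. Its log2 difference was 3.45 (SE 0.68).

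CA2, a carbonic anhydrase of red cells and many tissues, had 2.94 to 6.29 CPM in controls and 12.8 to 18.0 in NASH 2, 9, 11 and 20, then 60.4 in NASH 41 and 38.4 in NASH 65. Its log2 difference was 2.77 (SE 0.40), and 2.01 without those animals. MIOX, an enzyme of inositol breakdown known from kidney, had a log2 difference of 5.61 (SE 0.997) and B4GALNT1, a ganglioside synthase, one of 3.91 (SE 0.56), both with no overlap. E2F2, SLC6A9, MIOX and B4GALNT1 had 97, 36, 18 and 52 counts in the 6 controls together, so they were in the table only through their NASH counts. Genes named only for following the 9 are given with no test.

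Marker lists of other blood and liver cells were set beside the erythroid genes, and no listed marker in the table was at 0 counts in a whole group. The platelet and megakaryocyte markers, 4 of 12 listed, included 2 that rose, ITGB3 by 1.44 (SE 0.38, edgeR adjusted p = 0.00672) and TUBB1 by 1.39 (SE 0.49, edgeR adjusted p = 0.028), and ITGA2B did not pass at -0.10. Their summed level was 84.2 to 198.5 CPM in controls and 240.5 to 274.2 in NASH, where NASH 41 and 65 ranked 4 and 5. TUBB1 missed the threshold without NASH 41 and 65 (edgeR adjusted p = 0.209) and with limma-voom (adjusted p = 0.0937). Of 14 mast cell, basophil and eosinophil markers only MS4A2 and SIGLEC8 were in the table, and both rose, by 1.58 and 1.44 (edgeR adjusted p = 3.49e-04 and 4.26e-04). Their sum was 2.14 to 7.08 CPM in controls and 12.2 to 23.5 in NASH, and NASH 41 and 65 were the lowest NASH animals.

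The summed levels of 3 white cell lists overlapped between the groups. A single row made up the largest part of the neutrophil sum and of the lymphocyte sum. In the neutrophil list it was CEACAM8, at 109.4 to 171.2 CPM in controls and 79.47 to 97.09 in NASH. In the lymphocyte list it was CD3E, at 44.96 to 99.69 CPM in controls and 21.94 to 48.77 in NASH. These 2 sums are therefore not read as levels of the cell types. The neutrophil and granulocyte precursor markers, 5 of 15, summed to 129.2 to 192.3 CPM in controls and 132.0 to 150.7 in NASH, where NASH 41 and 65 were the top pair. S100A9 rose by 2.04, CSF3R by 1.27 and LTF by 1.13, and CEACAM8 fell by 0.52 (edgeR adjusted p = 0.0233, 0.0234, 7.62e-04 and 0.00106), CEACAM8 not passing with library size alone. The lymphocyte markers, 8 of 11, summed to 60.3 to 115.3 CPM in controls and 44.6 to 78.9 in NASH, with NASH 65 the highest and NASH 41 the lowest NASH animal. CD79B, CD79A, CD8A and MS4A1 rose by 1.62, 1.49, 1.29 and 1.12, and CD3E fell by 1.07. The macrophage markers, 9 of 12, summed to 395 to 842 CPM in controls and 649 to 983 in NASH, where NASH 41 ranked 1 and NASH 65 ranked 3. CD68, MERTK and MSR1 rose by 0.69, 0.51 and 1.15, and MARCO fell by 1.27, all past the edgeR threshold. S100A9, CSF3R, MS4A1, MERTK and MSR1 missed it without NASH 41 and 65. CSF3R also missed it without control 10 or NASH 65, MS4A1 without control 31 or NASH 65, and TUBB1 without any 1 of controls 5, 31, 32 and 56 or NASH 41 and 65. TUBB1, SIGLEC8, S100A9, CSF3R, CD79B, CD8A and MS4A1 had under 200 counts in the controls together and were in the table only through their NASH counts, and each passed in the fit of every row with at least 1 count (edgeR adjusted p = 4.52e-04 to 0.0325). ITGA2B, ITGB3, SIGLEC8 and CEACAM8 share their count rows with other symbols.

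Of 14 listed cell division genes 10 were in the table, 6 of them, TOP2A and BUB1 included, only through their NASH counts, and the 10 rose, also without NASH 41 and 65. TOP2A, the DNA topoisomerase of dividing cells, rose by 4.29 (SE 0.62, edgeR adjusted p = 9.32e-05) and the mitotic kinase gene BUB1 by 5.27 (SE 0.74, edgeR adjusted p = 7.29e-05), and both passed in the fit of every row with at least 1 count (adjusted p = 5.04e-04 and 1.69e-04). Their sum was 13.1 to 19.2 CPM in controls and 48.1, 68.7, 56.9, 195.6, 97.6 and 61.3 CPM in NASH 2, 9, 11, 20, 41 and 65. NASH 20, one of the animals low in erythroid genes, had the highest sum, and in none of the 10 genes were NASH 41 and 65 the top pair. That pair was on top in 3 of 5 neutrophil markers, 2 of 4 platelet markers and 4 of 11 genes of heme breakdown (60.0%, 50.0% and 36.4%). The same pair led 3 of 9 macrophage markers and 4 of 14 genes of heme synthesis (33.3% and 28.6%), all against 8.01% of all symbols. It was on top in 1 of 8 lymphocyte markers, 1 of 9 hepatocyte genes and neither of the 2 mast cell, basophil and eosinophil markers. The hepatocyte list had 8 of 9 genes lower in NASH, or 5 lower and 1 higher with library size alone, with a summed level of 105600 to 136400 CPM in controls and 41750 to 67790 in NASH, where NASH 65 ranked 1 and NASH 41 ranked 3. The part of other cells in the erythroid values was not tested.

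**Figure D5:**
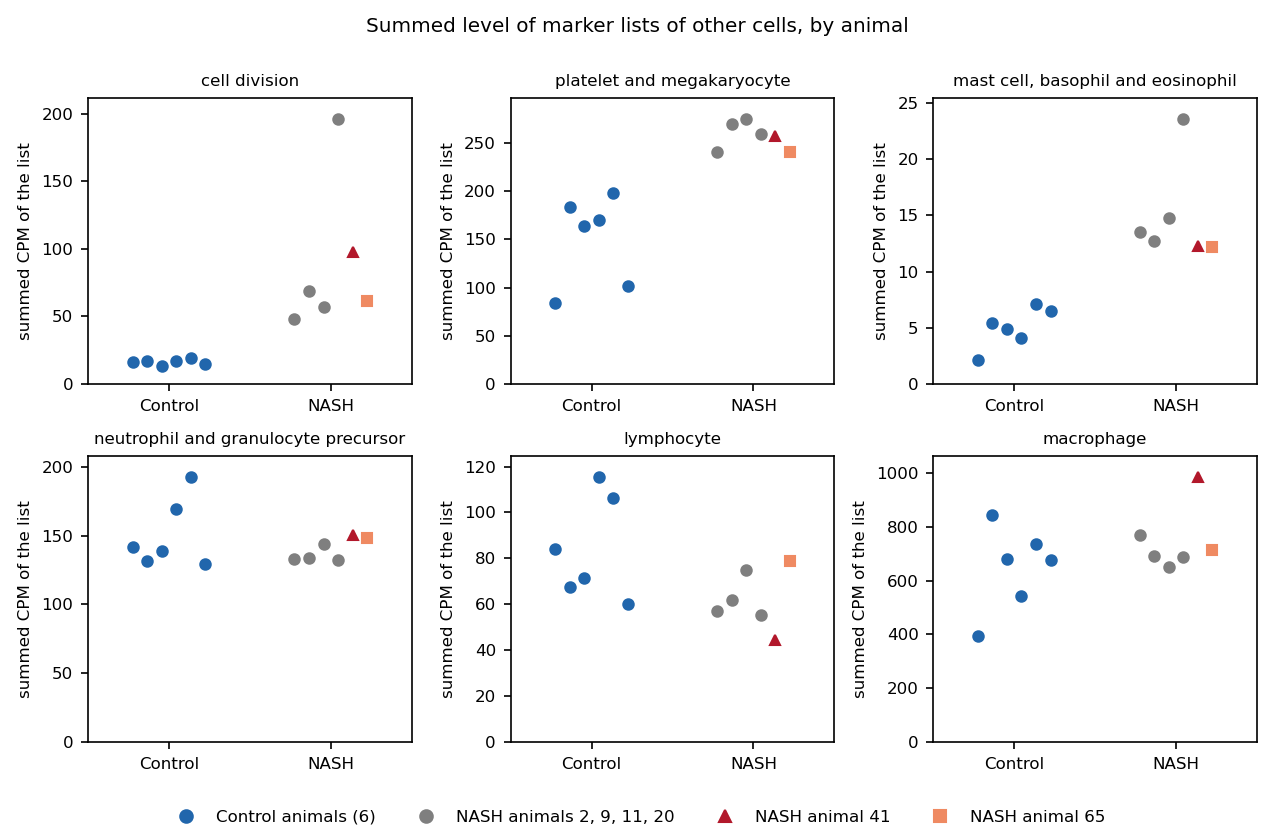
Each panel plots the summed CPM of the markers of 1 list for every Control and NASH animal. The cell division sum is highest in NASH 20, and NASH 41 and NASH 65, the animals highest in erythroid genes, are not both at the top outside the neutrophil panel.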

How the data were processed

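The authors deposited unnormalised read counts for each assembled locus or annotated gene. Reads of a stranded poly(A) library were trimmed with Trimmomatic 0.38.0, mapped with HISAT2 2.1.0 to Cavpor3.0 with multimapped reads ignored, and assembled and counted with StringTie 1.3.6. They also deposited log2 values (rlog of DESeq2) for 11896 human orthologue symbols with a total of at least 200 counts. The count table holds no symbols, so each symbol's count row was found by repeating the rlog in DESeq2 1.42.0, which matched all symbols to 11031 rows within 8.4e-07. Of the symbols, 1515 share a row with another symbol.

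Counts of the 11896 symbols were tested with edgeR 4.0.16 in R 4.3.3 (TMM factors, robust glmQLFit, glmQLFTest), with Benjamini-Hochberg adjustment over all symbols and a threshold of 0.05. Each sample is 1 animal, grouped by its label. CPM uses the TMM-scaled library, and log2 CPM a prior count of 2. A count of 0 allows up to 3 counts, or 0.214 CPM in the smallest control library, and such limits cover counting error only. On simulated data with 191 changed of 5942 genes, edgeR recovered 100% with 4.02% false calls. The simulation gave every gene the same dispersion and changed few genes, whereas 53.9% of symbols were called here. Its rates therefore do not describe the calls made here. Figures were drawn with matplotlib 3.10.9 in Python 3.11.15.

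The 9 erythroid genes and the 12 gene lists were chosen with earlier results of these data known. Named genes were all 9, of each list those past the threshold (at most 6, by size of change) and the ends of its range, and the 12 symbols most like the 9 by Pearson r. Alternatives were other scaling factors, DESeq2, limma-voom (limma 3.58.1), other filters, a threshold of 0.01, and leaving out animals. Some genes that this rule names are not reported here.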

Additional observations from a re-analysis of the deposited data

Results flagged for a closer look

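In 158 groups of 6 animals checked, 1 animal stood apart from the rest in 9, where chance gives about 1 in 20, or 7.9. The gap had to exceed 0.625 of the group's range, and each value is given against the median of the other 5 animals of its group. Among red cell genes these were RHCE in control 5, at 0.143 CPM against 6.24, and XK in control 56, at 0.202 CPM where the other controls had 0. KCNN4, also on a red cell list, was at 15.9 CPM in NASH 41 against 9.30. B4GALNT1, on no list and named only for following the 9 erythroid genes, was at 0.885 CPM in control 31 against 0.357. Among markers of other cells, MS4A2 in NASH 20 was at 19.4 CPM against 9.97. LTF in control 32 was at 36.0 CPM against 19.3, and CEACAM8 in control 45 at 171.2 CPM against 118.1. MARCO and MSR1 were low in control 5, at 28.6 CPM against 98.4 and 10.6 CPM against 41.7.

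Count rows without a human symbol take no part in the comparisons, and several of those that followed the erythroid genes were far above the controls, of which 2 with many counts are given. Row MSTRG.21466 averaged 1981 CPM in NASH and 130 CPM in controls. Row MSTRG.3540 averaged 33.5 CPM in NASH and 0.563 CPM in controls. The files used here give neither a gene name.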

How the results depend on the processing

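No paired analysis was possible because the 2 groups share no animal numbers. Leaving out 1 animal at a time gave 6046 to 6338 calls for all genes tested, and 1 to 2 for platelet and megakaryocyte markers. For the 9 erythroid genes the lowest log2 difference of these fits came in each gene without NASH 41, from 0.42 in SPTB to 6.82 in KEL, and 8 of the 9 moved by more than 1 SD of their log2 CPM over the NASH animals only without NASH 41 and 65 together, SPTB moving from 0.63 to 0.07. Since NASH 41 and 65 were the highest NASH animals in all 9 genes, the direction of these moves was fixed beforehand. The fit of XK reached 8.10 without control 56, the only control with counts. With every row of at least 1 count, all genes tested gave 10813 calls. With filterByExpr, globins and late red cell genes gave 3, and GATA1 was left out. With library size alone, the calls were 8 for erythroid transcription factors and erythropoietin signalling, 4 for platelet and megakaryocyte and 7 for macrophage, and 3 genes turned, ZFPM1 to 0.048, ITGA2B to 0.37 and ASGR1 to 0.29. With adjusted p under 0.01 the calls were 3, 1 and 2 for those lists and 2 for neutrophil and granulocyte precursor. limma-voom gave 1 for platelet and megakaryocyte. Without NASH 41 and 65 the calls were 1 for platelet and megakaryocyte, 2 for neutrophil and granulocyte precursor and 2 for macrophage. By Spearman's rho 6 of the 12 most similar genes were among the top 12. Of 62 named list genes, 26 changed call or direction under some setting. Apart from the turn in scale, the cause was not tested. Counts of 0 to 4 in controls limit every fold of GATA1, KEL, XK and TRIM58, and low counts limit the ranks among controls. The spread covers single animals sampled once, so p-values rest on 6 animals a group.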

Other observations

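Row MSTRG.21466, the most abundant of the rows without a symbol that followed the erythroid genes, kept a nearly fixed ratio to HBA1 in every animal. Its CPM was 0.966 to 1.19 times that of HBA1 in the 6 controls, with a median of 1.10, and 1.15 to 1.29 times in the 6 NASH animals, with a median of 1.23. It had 5271 CPM in NASH 41 and 3585 CPM in NASH 65, against 499.1 to 875.5 CPM in NASH 2, 9, 11 and 20. Of 7391 rows without a symbol, 20 had an r of at least 0.95 with the 9 erythroid genes and an SD of at least 0.5 over the NASH animals. In 12 of these 20 every NASH animal lay above every control, and 3 were at 0 in every control. These rows were singled out after their values were seen.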
